A study of Mus musculus with 2 samples.

Results

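The SNARE fusion machinery is the set of proteins that joins a transport vesicle to its target membrane, and it is described here beyond syntaxin 4, the member that was overexpressed. The genes were taken by name from the platform annotation of the array: syntaxins, syntaxin binding proteins, VAMPs, the SNAP-25 family, the Golgi and endosomal SNAREs, the disassembly factor NSF with its SNAP cofactors, and the complexins. The names gave 50 genes, read by 51 probe sets, of 19938 genes that the array measured. Hindlimb muscle RNA of male mice of strain C57BL/6J on standard chow was hybridised to 1 array for the Syn4 transgene (overexpression) genotype and 1 for wild type. The age of the mice, the number of mice behind an array, and the promoter and species of the transgene are not stated in the labels. Vamp2 was not among the genes with a probe set of its own and is not analysed here.

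SNARE proteins work by zipping. An R-SNARE on the vesicle coils together with Qa-, Qb- and Qc-SNAREs on the target membrane into a tight bundle, and proteins of the SNAP-25 family supply the Qb and Qc helices in a single chain. Sec1/Munc18 proteins bind syntaxins and guide assembly, and NSF with SNAP cofactors pulls spent bundles apart. In muscle and fat cells, syntaxin 4, SNAP23 and VAMP2 are known for fusing vesicles that carry the glucose transporter GLUT4 with the cell surface in response to insulin.

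Every value is a log2 intensity as deposited, and every difference is that of the transgenic array minus that of the wild-type array. There was no replication, so no value has an error, no difference was tested, and none has been set against the spread between mice. A level filter of 6.79, the median over all genes of the brighter of both values, separates brighter from dimmer genes. The 95th percentile of 1027 olfactory receptor genes, which muscle is not known to use, was 5.47. The tissue matched its label: all 8 defining genes of skeletal muscle were above the filter on both arrays, among them Acta1, skeletal actin, at 14.45 in the transgenic and 14.44 in the wild-type array, and Ckm, muscle creatine kinase, at 14.40 (transgenic) and 14.43 (wild type). As a yardstick of size, 436 of the 9974 genes above the filter differed by at least 1.5-fold in either direction, which is 4.37%. Without the filter it was 588 of 19938, or 2.95%.

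Stx4a, the gene of the transgene, was at 12.20 in the transgenic array and at 8.84 in wild type, a 10.3-fold higher signal. Its single probe set cannot separate the transcript of the transgene from that of the mouse gene. The other 49 genes stayed close to their wild-type levels. Their median difference was 0.05, beside 0.00 over all genes and 0.03 over the genes above the filter, where 39 of the 49 lie. Above 0 were 28 (57.1%) and below it 21. The share above 0 was 46.9% over all genes and 53.5% over those above the filter. Of these 49, 36 (73.5%) lay within 0.2 of 0 on the log2 scale, beside 66.7% of all genes. Only Sec22b and Napb passed 1.5-fold, and both were higher in the transgenic array. That is 4.08% of the 49, beside the 2.95% of all genes in either direction and the 1.76% of all genes that were higher, and 2 genes are too few to set apart from that background. Above the filter on both arrays were 38 of the 49, Sec22a passed on the wild-type array alone, and 10 were under it on both.

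**Figure D1:**
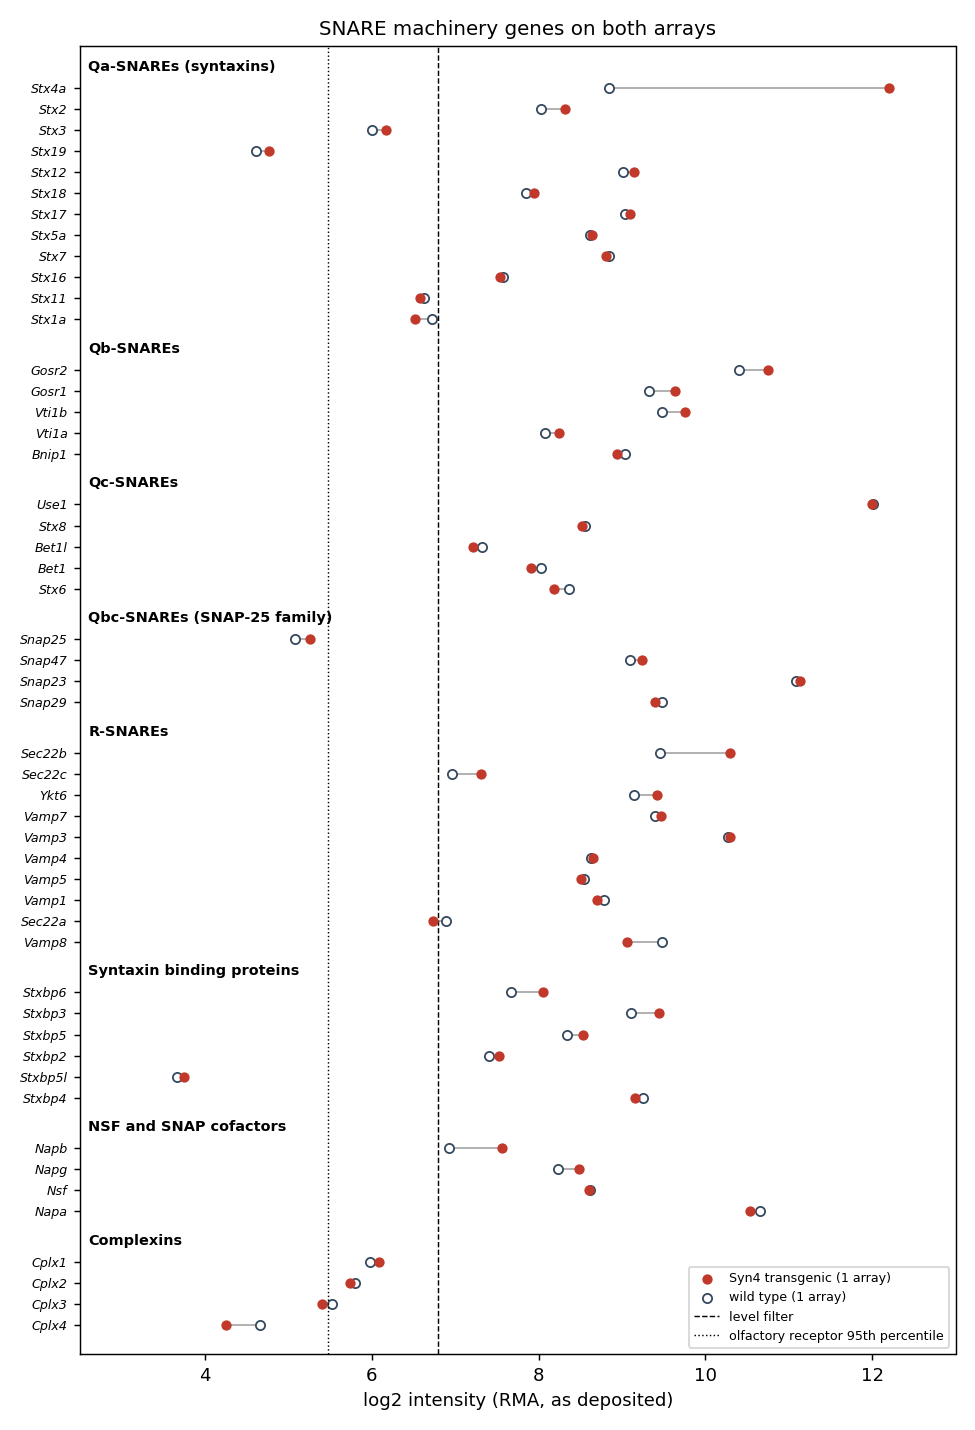
Log2 intensity (horizontal axis) of each of the 50 genes, grouped by role and sorted by difference within a role. Filled red points are the Syn4 transgenic array, open points the wild-type array, and the lines mark the level filter (6.79) and the olfactory receptor percentile (5.47); the wide gap of Stx4a contrasts with the short lines of the other genes, of which those of Sec22b and Napb are longest.

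**Figure D2:**
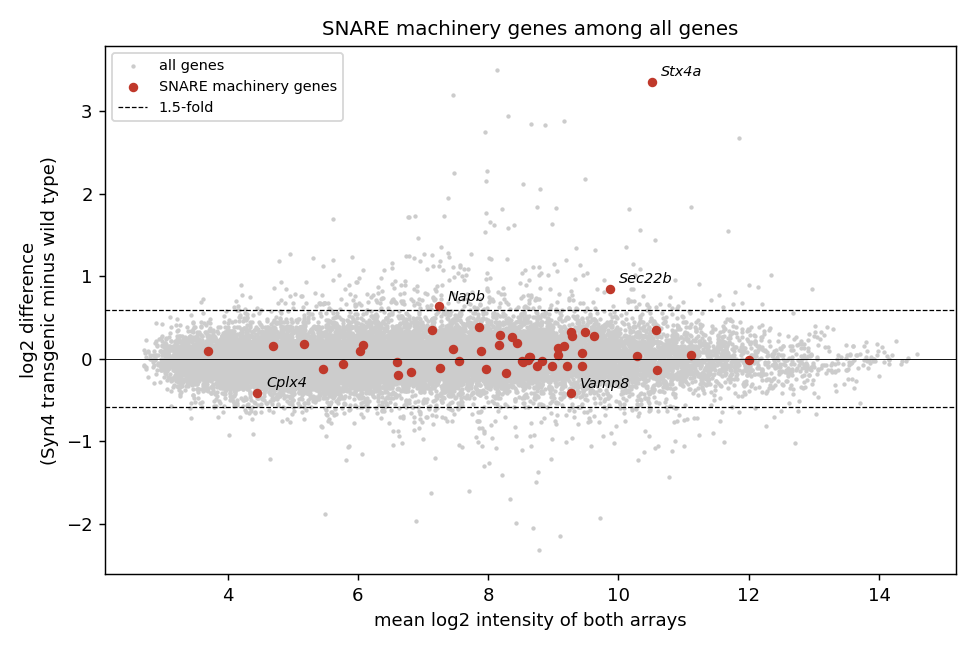
Difference in log2 intensity (vertical axis, Syn4 transgenic minus wild type) against the mean log2 intensity of both arrays (horizontal axis), with 1 point per gene, all 19938 genes in grey and the SNARE machinery in red. Dashed lines mark 1.5-fold; Stx4a stands at 3.36, Sec22b at 0.85 and Napb at 0.64, and the other 47 genes lie between the lines.

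Sec22b, an R-SNARE of vesicles that shuttle between the endoplasmic reticulum and the Golgi, had the largest difference after Stx4a. It was at 10.30 in the transgenic array and at 9.45 in wild type, a 1.80-fold higher level. All genes were split by mean level into 4 bands of near equal size, and in the brightest band, to which Sec22b belongs, the middle 95% of differences ran from -0.53 to 0.56. Sec22b lay outside that range. Napb, the beta form of SNAP best known from neurons, was at 7.56 in the transgenic array and at 6.92 in wild type, a 1.56-fold higher level. The middle 95% in its own band ran from -0.46 to 0.61, so that its 0.64 was only just outside. No other gene of the 49 left the middle 95% of its own band.

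The 300 bases around the annotated start of Sec22b and Napb, the 2 genes past 1.5-fold, are shown with those of the mouse Stx4a gene, the gene of the overexpressed protein. Whether this window drives the transgene is not stated in the labels. They are RefSeq sequences of build GRCm38.p6, with 250 bases before and 50 after the start, 5′ to 3′ on the strand of the gene. The windows are chr7:127841558-127841857 on the plus strand for Stx4a, chr3:97900977-97901276 on the plus strand for Sec22b, and chr2:148732371-148732670 on the minus strand for Napb. Capitals mark matches on either strand to any of 4 motifs, none of which contains another. They are the GC box, GGGCGG, the CCAAT box, named by its letters, the core of the CLEAR element of lysosomal genes, CACGTG, and the TATA box, searched as TATAAA.
Stx4a: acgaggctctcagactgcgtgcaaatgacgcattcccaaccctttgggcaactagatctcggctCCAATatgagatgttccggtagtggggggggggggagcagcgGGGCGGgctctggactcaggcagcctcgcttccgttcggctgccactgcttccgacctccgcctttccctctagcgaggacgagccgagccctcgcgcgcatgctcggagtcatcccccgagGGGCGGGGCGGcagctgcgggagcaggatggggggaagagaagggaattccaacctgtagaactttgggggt
Sec22b: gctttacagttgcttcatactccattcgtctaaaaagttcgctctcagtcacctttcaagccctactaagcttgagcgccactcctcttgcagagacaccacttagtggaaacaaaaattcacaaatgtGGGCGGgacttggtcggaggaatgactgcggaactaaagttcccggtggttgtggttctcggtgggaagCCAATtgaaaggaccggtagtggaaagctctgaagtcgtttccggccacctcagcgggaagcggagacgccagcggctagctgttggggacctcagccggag
Napb: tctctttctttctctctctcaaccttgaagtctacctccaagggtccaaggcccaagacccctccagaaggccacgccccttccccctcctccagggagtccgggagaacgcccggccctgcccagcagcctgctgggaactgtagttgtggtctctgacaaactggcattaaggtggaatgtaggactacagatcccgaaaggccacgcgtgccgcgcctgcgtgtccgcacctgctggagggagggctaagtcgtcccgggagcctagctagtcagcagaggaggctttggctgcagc

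The Stx4a window held 3 GC boxes and 1 CCAAT, the Sec22b window 1 of each, and the Napb window none of the 4 motifs. No window of the 3 held CACGTG or TATAAA. Their GC content was 64.3%, 53.3% and 61.3%, in the order printed. Of the 50 genes, 45 had a window in the table, 52 windows in all. GGGCGG was found in 59.6% of these windows and in 35.7% of all 32851 windows of that length, which also include non-coding genes. The windows of the machinery were richer in G and C, with a median of 61.8% against 52.7% over all windows. CCAAT was found in 40.4% of them and 37.4% of all, CACGTG in 15.4% of them and 7.15% of all, and TATAAA in 5.77% of them and 13.6% of all. A match of letters is a description, and no binding was measured here.

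The Qa-SNAREs other than Stx4a did not follow it. The 11 genes spanned differences of -0.20 to 0.29 around a median of 0.05, and 7 were above 0. Of the relatives of syntaxin 4 that serve the plasma membrane, Stx2 was at 8.32 in the transgenic and 8.03 in the wild-type array, the top difference of the class. Stx3 was at 6.17 in the transgenic and 6.00 in the wild-type array, and Stx1a, the neuronal form, at 6.52 (transgenic) and 6.72 (wild type), the lowest difference of the class. Stx1a and Stx3 were under the level filter on both arrays. So were Stx11, known from lymphocytes and platelets, at 6.58 in the transgenic and 6.62 in the wild-type array, and Stx19 at 4.77 (transgenic) and 4.61 (wild type). Stx19 was also under the olfactory receptor percentile. The syntaxins of inner membranes were near equal: Stx12 of recycling endosomes differed by 0.13, Stx18 of the endoplasmic reticulum by 0.09, Stx17 of autophagosomes by 0.05, Stx5a of the Golgi by 0.02, and Stx7 of late endosomes and Stx16 of the trans-Golgi by -0.03 each.

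Genes of the proteins that syntaxin 4 meets at the cell surface showed no difference near that of Stx4a. Snap23, the Qbc-SNARE of the GLUT4 vesicle complex, was at 11.14 in the transgenic and 11.09 in the wild-type array. The change of Stx4a exceeded that of Snap23 by 3.31 log2 units. Vamp3, an R-SNARE of recycling endosomes that can pair with syntaxin 4, was at 10.30 in the transgenic and 10.27 in the wild-type array. Stxbp3, the Munc18c protein that binds syntaxin 4, was at 9.44 in the transgenic and 9.11 in the wild-type array, a 1.26-fold higher level and 3.03 log2 units short of the difference of Stx4a. Stxbp4, also called Synip and known as a syntaxin 4 partner that responds to insulin, was the only gene with more than 1 probe set. Its probe sets were at 9.16 and 8.72 on the transgenic array and at 9.25 and 8.75 on that of wild type, differences of -0.09 and -0.03.

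The other syntaxin binding proteins were slightly higher in the transgenic array, and none reached 1.5-fold. Stxbp6, amisyn, which carries a VAMP-like coil, was at 8.05 in the transgenic and 7.67 in the wild-type array, a 1.30-fold higher level. Stxbp5, tomosyn, which holds syntaxins in unproductive complexes, differed by 0.19, and Stxbp2, the Munc18-2 protein of granule-bearing cells, by 0.12. Stxbp5l, a second tomosyn, was at 3.75 in the transgenic and 3.66 in the wild-type array, under the olfactory receptor percentile on both. In all, 5 of the 6 genes of this class were above 0, with a median of 0.16, beside 46.9% of all genes above 0.

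Among the R-SNAREs, Sec22b and Vamp8 lay at opposite ends. Vamp8, endobrevin, which acts in late endosomes, autophagosome fusion and regulated secretion, was at 9.06 in the transgenic array and at 9.48 in wild type. Its 1.34-fold lower level was the lowest difference of the 49 at -0.42, inside the middle 95% of its band. Vamp5, its neighbour on chromosome 6 with a single non-coding gene annotated between them, did not share this value, with 8.51 in the transgenic and 8.54 in the wild-type array. Vamp5 is also called myobrevin for its expression in muscle. The remaining VAMPs were within 0.1 of their wild-type levels on the log2 scale: Vamp7 of lysosomes differed by 0.07, Vamp4 of the trans-Golgi by 0.02 and Vamp1, a synaptobrevin of motor nerve terminals, by -0.09. The relatives of Sec22b split, with Sec22c at 7.31 in the transgenic and 6.96 in the wild-type array, and Sec22a at 6.73 (transgenic) and 6.89 (wild type). Ykt6, a lipid-anchored R-SNARE of the Golgi, was at 9.42 in the transgenic and 9.14 in the wild-type array. The class median over 10 genes was 0.03, and it was -0.002 after removal of a loess trend and -0.015 after quantile normalization, so no direction can be given for the class.

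The single-helix Qb- and Qc-SNAREs lay mostly on opposite sides of 0, by small amounts. Of 5 Qb genes, 4 were above 0, with a median of 0.28. All 5 Qc genes were below 0, with a median of -0.11. Over all genes above the filter, 53.5% were above 0 and the median was 0.03. With 5 genes, neither class can be set apart from that background. The counts of both classes were the same after loess and quantile scaling, while median centring leaves the deposited differences unchanged. Both of those scalings moved the Qc values further down, so the Qc count was not put to a test by them. Gosr2, the Qb-SNARE membrin of the early Golgi, was at 10.75 in the transgenic and 10.40 in the wild-type array. Bet1, the Qc-SNARE that joins it in one bundle, was at 7.91 in the transgenic and 8.03 in the wild-type array. Gosr2 thus differed from Bet1 in change by 0.47 log2 units.

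Gosr1, the Qb-SNARE GOS28 of the Golgi stack, was at 9.64 in the transgenic and 9.32 in the wild-type array, and its partner Bet1l at 7.21 (transgenic) and 7.32 (wild type). Of the endosomal pairs, Vti1b was at 9.76 in the transgenic and 9.48 in the wild-type array and Stx8 at 8.52 (transgenic) and 8.56 (wild type), while Vti1a was at 8.25 in the transgenic and 8.08 in the wild-type array and Stx6 at 8.19 (transgenic) and 8.36 (wild type). In these 4 pairs the Qb change exceeded the Qc change by 0.32 to 0.47. The fifth pair, Bnip1 and Use1 of retrograde transport to the endoplasmic reticulum, did not share this, with differences of -0.09 and -0.01. Use1 was at 12.00 in the transgenic and 12.01 in the wild-type array. Every one of these 10 values lay inside the middle 95% of its band, and the pairs were set out after the values were seen.

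**Figure D3:**
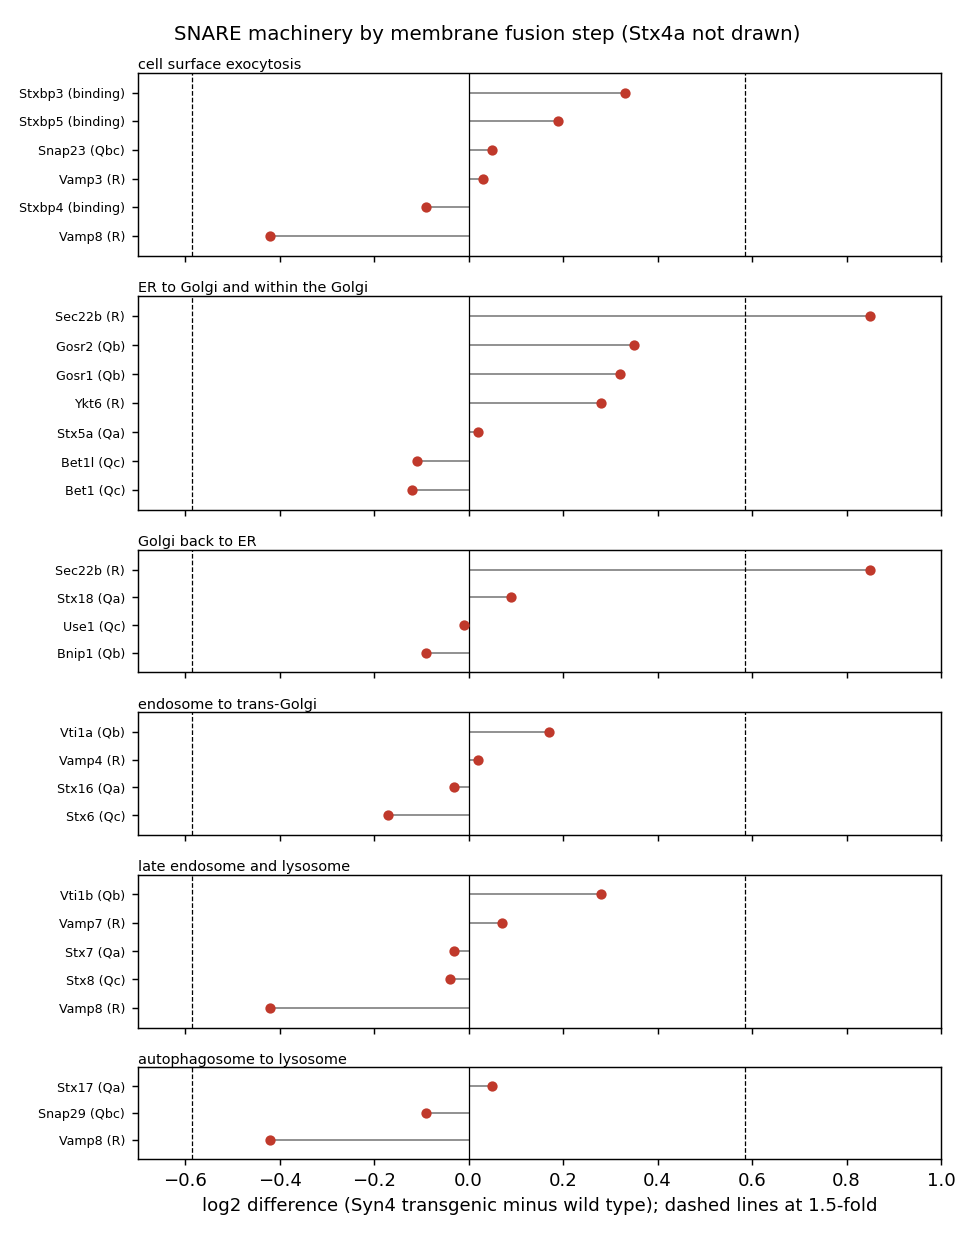
Difference in log2 intensity (horizontal axis, Syn4 transgenic minus wild type) of the genes whose products act at 6 fusion steps, with the SNARE class in brackets; 1 point per gene, dashed lines at 1.5-fold, and Sec22b and Vamp8 drawn at each step they serve. The ER to Golgi panel holds Sec22b at 0.85 and 4 further genes above 0, with Bet1 and Bet1l below 0, and in the endosomal panels most genes lie near 0.

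By fusion step, a grouping also made after the values were seen, the largest median was that of the 7 genes of transport from the endoplasmic reticulum to the Golgi and within it, at 0.28. Sec22b, Gosr2, Gosr1 and Ykt6 were the upper 4. Stx5a, the syntaxin that all these complexes share, was at 8.64 in the transgenic and 8.62 in the wild-type array, and its sign turned under loess and quantile scaling. The 6 genes of cell surface exocytosis other than Stx4a had a median of 0.04. The median was -0.005 over 4 genes of transport from endosomes to the trans-Golgi, -0.03 over 5 genes of late endosomes and lysosomes, and -0.09 over 3 genes of autophagosome fusion. The 4 genes of return transport to the endoplasmic reticulum had a median of 0.04, with Sec22b among them.

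The Qbc-SNAREs and complexins include the forms best known from neurons, and those were dim. Snap25, the Qbc-SNARE of synapses, was at 5.26 in the transgenic and 5.08 in the wild-type array, under the olfactory receptor percentile on both. The widely expressed Snap47 was at 9.24 in the transgenic and 9.09 in the wild-type array, and Snap29, which acts in autophagosome fusion, at 9.39 (transgenic) and 9.48 (wild type). All 4 complexins, small proteins that clamp part-zipped bundles before calcium-triggered release, were under the level filter on both arrays. Cplx1 was at 6.08 in the transgenic and 5.98 in the wild-type array, Cplx2 at 5.74 (transgenic) and 5.80 (wild type), and Cplx3 at 5.40 (transgenic) and 5.52 (wild type). Cplx4 had the second lowest difference of the 49 genes, with 4.25 in the transgenic and 4.66 in the wild-type array. Both its values lay under the olfactory receptor percentile, within the range of genes not known from muscle.

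Of the disassembly factors, Napb alone passed 1.5-fold. Nsf, the ATPase that unwinds spent bundles, was at 8.60 in the transgenic and 8.62 in the wild-type array. Napa, alpha-SNAP, was at 10.53 in the transgenic and 10.66 in the wild-type array. Napg, gamma-SNAP, was at 8.49 in the transgenic and 8.23 in the wild-type array, a 1.20-fold higher level. The ATPase and its main cofactor lay at or slightly below the wild-type level, and the 2 other cofactors above it.

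Markers of other cell types also differed between these arrays. In whole muscle, more cells of a type and more RNA per cell cannot be told apart. Of 14 measured markers of motor axons and Schwann cells, 11 were above 0 with a median of 0.09, beside 46.9% of all genes above 0. Over Mbp and Pmp22, the only ones above the level filter on both arrays, the median was 0.455. Egr2 and Sox10 passed that filter on the transgenic array alone, where they were higher. Values of the 14 markers ran from 4.35 to 11.64 in the transgenic and from 4.61 to 11.24 in the wild-type array. The axon genes among them were under the level filter, with Nefl, neurofilament light chain and the lowest difference of the list, at 4.35 in the transgenic and 4.64 in the wild-type array, Syt1 at 5.01 (transgenic) and 5.16 (wild type), and Chat at 4.82 (transgenic) and 4.77 (wild type). Genes of Schwann cells and myelin were higher. Egr2, a regulator of myelination that also responds to acute stimuli, was at 6.94 in the transgenic and 5.86 in the wild-type array, a 2.11-fold higher level. Ncmap, a myelin protein gene, was at 6.31 in the transgenic and 5.41 in the wild-type array, a 1.87-fold higher level under the level filter. Mbp, myelin basic protein, differed by 0.51, Pmp22, a protein of peripheral myelin, by 0.40, S100b by 0.30, Mag by 0.11 and Sox10 by 0.09. These values stand beside that of Napb, and their part in it was not tested.

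Of 10 measured genes listed for white adipocytes, not all of them particular to white fat, 9 were above 0 and 7 higher by at least 1.5-fold. Over all genes above the level filter, 265 of 9974 were higher by that much and 171 lower. The median of the 10 adipocyte genes was 1.14. Their values ran from 5.56 to 9.83 in the transgenic and from 5.75 to 8.43 in the wild-type array. The 7 were the hormone genes Lep (3.20), Adipoq (2.06) and Retn (1.15), the lipid droplet genes Cidec (1.81) and Plin1 (1.62), and Pck1 (1.12) and Slc7a10 (0.86), each as a log2 difference, and Cidea was lowest at -0.19. Lep, Pck1 and Slc7a10 passed the level filter on the transgenic array alone. All 8 slow fibre genes were lower by at least 1.5-fold, with a median of -0.86. Tpm3 was counted by the brightest of its 4 probe sets, and the median over genes with 1 probe set was -0.9. Values of the 8 genes ran from 10.37 to 12.70 in the transgenic and from 11.37 to 13.37 in the wild-type array. These were the slow forms of myosin light chain (Myl3, -1.02, and Myl2, -0.63), the slow troponins (Tnnc1, -1.01, and Tnnt1, -0.90, with Tnni1 at 10.37 in the transgenic and 11.37 in the wild-type array), the slow myosin heavy chain (Myh7, -0.82), the calcium pump Atp2a2 (-0.67) and the tropomyosin Tpm3 (-0.63). The 9 fast fibre genes had a median of 0.03, from Myh2 at -0.15 to Myh1 at 0.36. The part of adipocyte content and fibre type in the differences of Sec22b, Vamp8 and the other genes was not tested. Leukocyte markers, given because Stx11, Stxbp2 and Vamp8 are known from such cells, were below their wild-type level in the median over all measured genes. The 14 genes of macrophages and granule cells had a median of -0.07, which was 0.09 over those above the level filter, from the mast cell protease gene Cpa3 at -0.71 to Kit at 0.27. The 7 lymphocyte genes were all under the level filter with a median of -0.26, from Nkg7 at -0.36 to Gzma at 0.22. Nkg7 and Gzma were under the olfactory receptor percentile on both arrays. Only 2 of the 7, Cd3e and Cd2, passed that percentile on the brighter array, with a median of -0.09. Endothelial genes had a median of -0.11 over 8, from Kdr at -0.44 to Vwf at 0.32.

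Genes that act with the SNARE machinery but are not SNAREs also stayed within 1.5-fold. None of 41 measured genes passed it, and their median was 0.08. Over all genes 2.95% passed it, and 41 genes are too few to set apart from that background. The COG, GARP and NRZ tethers, which catch vesicles at the Golgi and endoplasmic reticulum, were above 0 in 13 of 14 cases with a median of 0.21. Over all genes above the filter, 53.5% were above 0 and the median was 0.03. The highest was Vps53 of GARP at 8.71 in the transgenic and 8.27 in the wild-type array, and the lowest Vps52 at 8.48 on both. The HOPS and CORVET tethers of endosomes and lysosomes, listed together with Vipas39, a partner of VPS33B, had a median of 0.08 over 8 genes. Vipas39 was lowest at -0.19. The tethers themselves ran from Vps11 and Vps18 at 0.00 to Vps8 at 0.36. Of the other Sec1/Munc18 genes, Scfd1, the Golgi form that binds syntaxin 5, was highest at 7.55 in the transgenic and 7.20 in the wild-type array, and Vps45 was lowest at 6.61 (transgenic) and 6.78 (wild type). The median of these 5 genes was 0.06, and 0.19 over the 4 above the level filter.

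The priming factors of calcium-triggered exocytosis were all under the level filter. Of these 9 genes 8 were below 0, with a median of -0.12. They ran from Unc13d, the Munc13-4 protein of leukocyte granules, at -0.48 to Cadps2 at 0.24. Cadps and Cadps2 were under the olfactory receptor percentile on both arrays. Unc13a has 3 probe sets and Unc13c 7, each counted by its brightest. With the mean of the probe sets the median was -0.06. In both of the dimmer bands of level, the median over all genes was -0.04. The cargo of GLUT4 vesicles was split. Slc2a4, the GLUT4 gene itself, was at 11.92 in the transgenic and 12.27 in the wild-type array, a 1.27-fold lower level, and Tfrc, the transferrin receptor, was at 10.20 (transgenic) and 10.71 (wild type), a 1.42-fold lower level. Sort1, the sorting receptor sortilin, was at 10.45 in the transgenic and 10.07 in the wild-type array. Lrp1, a receptor found in the same vesicles, was at 10.64 (transgenic) and 10.28 (wild type), and Igf2r differed by 0.05. Lnpep was not among the measured genes.

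**Figure D4:**
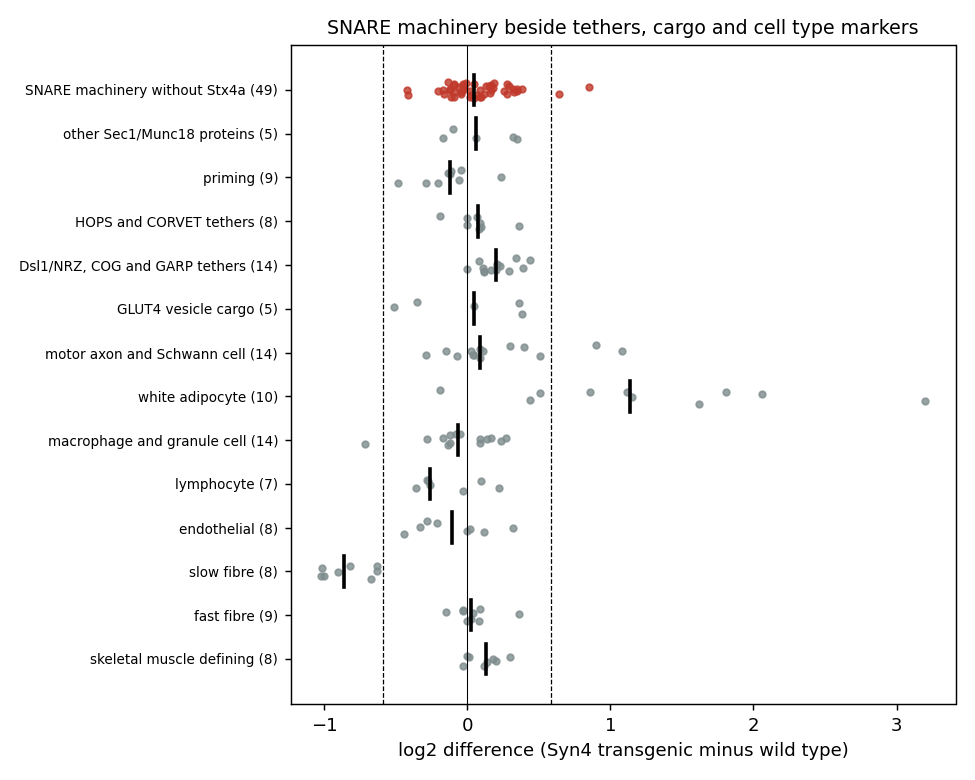
Difference in log2 intensity (horizontal axis, Syn4 transgenic minus wild type) of the 49 SNARE machinery genes other than Stx4a (red), the lists of genes that act with them, and the marker lists (grey), with the number of measured genes in brackets. Points are genes, black bars are list medians and dashed lines mark 1.5-fold. The SNARE machinery centres on 0.05, the white adipocyte list on 1.14 and slow fibre genes on -0.86.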

How the data were processed

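RNA was measured on 2 whole-transcript arrays, 1 per genotype. The authors deposited log2 intensities of 35556 probe sets, made with RMA in Partek per the submitters' processing notes; neither versions nor steps are stated there. RMA compresses large ratios and makes no detection call, and having so few arrays limits precision. The median was 6.06 on both arrays. Platform annotation, which can be old, gave 1 symbol to 21789 probe sets, several to 1621 and none to 12146. All 50 symbols matched the RefSeq gene table of GRCm38.p6. Of the probe sets with several symbols, 2 included a name of this family and were left out. The brightest probe set stood for each of the 999 genes with several. Differences were taken with pandas 2.3.3 and loess with statsmodels 0.14.6 (span 0.3, 3 iterations); no test was run. The size rule was 1.5-fold. Alternatives covered the filter, probe sets, scaling and size rule. The counting was run on simulated differences. Unchanged genes were held under 1.5-fold there, so the run could not show false calls. The genes and lists were chosen with earlier results of these data known. Named were the members of the family, and of other lists those past 1.5-fold, the highest and the lowest. A few others were chosen for naming once their values were known.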

Additional observations from a re-analysis of the deposited data

How the results depend on the processing

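With 1 array per genotype, no alternative could leave out a replicate, and no paired analysis was possible because each genotype has a single array. Sec22b and Napb each have 1 probe set and were above the filter on both arrays. Filter and probe set alternatives therefore could not change them. Median centring could not either, because the median was 6.06 on both arrays. Under loess and quantile scaling both genes stayed past 1.5-fold, with differences of 0.825 to 0.85 and 0.605 to 0.64 over the scalings. At 2-fold, 0 of the 49 genes were higher, where 2 were at 1.5-fold, and 0 were lower, and the counts over all genes above the filter were 86 higher and 38 lower. The median of the 49 genes was 0.05 as deposited and as low as 0.01 under quantile normalization. No single gene of the machinery moved by more than 0.06 on the log2 scale under any alternative, and the signs of Stx5a and Vamp4 turned under loess and quantile scaling. Of 201 list medians recomputed, 192 moved by at most 0.1, taken as the limit in the absence of replicates. Part of these could not move. The reported medians use no level filter, so dropping it repeats them, and median centring leaves every difference as deposited. The probe set alternatives touch only the few genes with several probe sets. The count of 192 therefore overstates how far stability was tried. The 9 medians that moved by more came from filters, which change the genes counted. The Sec1/Munc18 median was 0.19 with the level filter on both arrays or on the brighter array. The motor axon and Schwann cell median was 0.455 with these filters and 0.205 with the olfactory receptor percentile as the filter. The macrophage and granule cell median was 0.09, of opposite sign to that reported, with both level filters. The white adipocyte median was 1.385 with the filter on both arrays, and the lymphocyte median was -0.09 with the olfactory receptor filter. The filter on the brighter array for medians was added after seeing the data. Dim genes, such as the complexins, carry little signal over background, and differences between them rest on that.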
